A study of Mus musculus with 36 samples.

Results

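The 35 genes described here encode proteins of blood clotting, of its inhibitors and of fibrinolysis, the enzymatic removal of clots. They were taken by name from a list and found in the deposited liver table by matching Ensembl gene identifiers to mouse symbols. All 35 were among the 34829 genes of the table, and 30 of them were among the 8702 tested genes, whose mean signal reached 5. By role they fall into fibrinogen and its liver relative (Fga, Fgb, Fgg, Fgl1), the contact system (F11, F12, Klkb1, Kng1, Kng2) and the vitamin K-dependent proteins (F2, F7, F9, F10, Proc, Pros1, Proz). The others are tissue factor, cofactors and partners of the clot (F3, F5, F8, F13b, Vwf, Thbs1), inhibitors and receptors (Serpinc1, Serpind1, Serpina10, Tfpi, Thbd, Procr) and fibrinolysis (Plg, Plat, Plau, Serpinf2, Cpb2, Hrg, Habp2).

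Livers came from C57BL6/J mice, an inbred laboratory strain, housed at 22 °C or at 30 °C, where mice spend little energy on warmth. Livers were taken 0, 4, 12 or 24 h after lipopolysaccharide (LPS), a bacterial cell wall component that provokes systemic inflammation. Before LPS there were 4 libraries from 22 °C and 5 from 30 °C. The 4 h groups had 4 each, the 12 h groups 5 (22 °C) and 4 (30 °C), and the 24 h groups 5 each. The series compares the temperatures and follows the response over time. The labels name no group without LPS at the later times, so the time of day, the injection and feeding cannot be told apart from LPS in any change since 0 h. The sources used here do not say whether each library is a different mouse. The p-values therefore speak of the scatter among libraries, which may be technical.

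The liver makes nearly all of the proteins that clot plasma and many of those that limit or dissolve the clot. In the coagulation cascade a chain of protease zymogens is activated, by tissue factor with factor VII or by the contact system of factor XII, prekallikrein and kininogen, until thrombin cuts fibrinogen into fibrin. Antithrombin, heparin cofactor II, the protein C pathway and tissue factor pathway inhibitor hold the cascade in check, and plasmin dissolves fibrin. Fibrinogen is a classic acute phase protein, whose synthesis in hepatocytes is driven by interleukin-6, whereas several other plasma proteins of the liver are known to be made less during inflammation.

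Signal below is the authors' scaled reads per base. Libraries were made with a 3′-end method, CEL-Seq2, applied to bulk RNA, so a level per base compares genes only roughly. Group signals are mean ± SD. Differences are on the log2(signal + 1) scale, ± SE, from one limma model over all 36 libraries, and a call is a Benjamini-Hochberg (BH) adjusted p under 0.05 over the 8702 genes. The words rose, fell, higher and lower are used of single genes only for calls. In bulk liver RNA, fewer cells of a type and less RNA per cell cannot be told apart.

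Libraries held between 557000 and 2744000 estimated reads, and 3 reads were estimated to be worth a signal of 1.33 to 5.05. That worth was set per library for all genes alike and is approximate. One library stood apart in its scale, replicate 4 at 30 °C and 4 h, whose upper quartile was 1.31 times the typical one, against 0.919 to 1.11 in the others. It also had the most genes above 0, 18633, against 14233 in the next library. Without it the member counts of the comparisons that use it did not change. The upper quartile also differed by group, at 1.04 to 1.31 times the typical one in the 4 h libraries. At 24 h it was 0.955 to 0.999 times at 22 °C and 0.919 to 0.948 times at 30 °C. Summed hepatocyte markers (5 of 6 listed genes were in the table) lay between 19967 and 33050 at 0 h, between 17980 and 25957 at 4 h, between 8660 and 17196 at 12 h and between 7422 and 13709 at 24 h. Every one of the 5 was detected in each group.

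The promoters of the 3 fibrinogen genes and of the neighbours F11 and Klkb1 are shown because the fibrinogen genes rose together while F11 and Klkb1 moved in opposite directions. Each window runs from 250 bases before to 50 bases after the RefSeq gene start (GRCm38.p6), written 5′ to 3′ on the gene's strand. They lie at chr3:83025903-83026202 (+ strand), chr3:83049814-83050113 (-), chr3:83007474-83007773 (+), chr8:45261982-45262281 (-) and chr8:45294786-45295085 (-). Capitals mark the hexamer CTGGGA, the core of the interleukin-6 response element described for fibrinogen genes, or its reverse complement TCCCAG.
Fga: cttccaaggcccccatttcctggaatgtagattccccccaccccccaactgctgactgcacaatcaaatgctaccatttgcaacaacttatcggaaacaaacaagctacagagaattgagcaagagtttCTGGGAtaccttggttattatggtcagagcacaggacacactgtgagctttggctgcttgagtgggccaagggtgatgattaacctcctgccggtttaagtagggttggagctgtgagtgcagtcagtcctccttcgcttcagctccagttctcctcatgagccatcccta
Fgb: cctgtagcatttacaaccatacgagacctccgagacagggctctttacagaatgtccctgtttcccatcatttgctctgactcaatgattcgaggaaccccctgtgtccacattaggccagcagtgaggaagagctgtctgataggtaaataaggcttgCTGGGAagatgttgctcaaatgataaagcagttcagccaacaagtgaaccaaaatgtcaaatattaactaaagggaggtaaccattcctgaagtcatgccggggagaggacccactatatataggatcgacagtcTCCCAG
Fgg: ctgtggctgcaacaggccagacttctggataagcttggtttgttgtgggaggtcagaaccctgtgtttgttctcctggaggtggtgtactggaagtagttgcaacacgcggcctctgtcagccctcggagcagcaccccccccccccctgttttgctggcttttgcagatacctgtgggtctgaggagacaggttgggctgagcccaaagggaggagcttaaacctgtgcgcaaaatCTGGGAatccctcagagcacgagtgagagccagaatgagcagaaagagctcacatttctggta
F11: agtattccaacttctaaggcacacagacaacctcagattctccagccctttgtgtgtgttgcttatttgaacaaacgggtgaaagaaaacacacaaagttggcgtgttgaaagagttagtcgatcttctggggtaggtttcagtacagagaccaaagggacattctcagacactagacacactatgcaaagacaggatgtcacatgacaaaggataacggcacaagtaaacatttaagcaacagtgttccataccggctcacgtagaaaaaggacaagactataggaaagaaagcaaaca
Klkb1: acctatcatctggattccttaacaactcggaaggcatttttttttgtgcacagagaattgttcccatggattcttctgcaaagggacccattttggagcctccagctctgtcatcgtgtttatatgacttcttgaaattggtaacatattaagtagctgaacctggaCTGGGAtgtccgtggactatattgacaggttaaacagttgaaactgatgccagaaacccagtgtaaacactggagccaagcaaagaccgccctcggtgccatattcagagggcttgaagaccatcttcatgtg
Positions below count from the gene start, with the first base of the match given. The hexamer was found at -121 in the Fga window, at -91 and 45 in that of Fgb, at -13 in that of Fgg and at -83 in that of Klkb1, and not in that of F11. It is short, and 31.8% of 32851 mouse promoter windows of the same length held it on either strand, as did 13 of the 26 windows found for 25 members. Of 3 further motifs searched on both strands, TTCNNNGAA (a STAT palindrome, in 8.30% of all windows) was found in the Fga and Fgb windows, at -234 and -162. TTGCNNAA (a C/EBP-type motif, in 10.8%) was found once each in the windows of Fga, Fgb, F11 and Klkb1, at -135, -80, -17 and -177. GTTAAT (an HNF1-type motif, in 7.10%) was found at -43 in Fga and at -29 in Fgb. These are matches of letters only.

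After LPS the coagulation genes changed in both directions. At 22 °C, 12 of the 30 tested members were higher and 1 was lower at 4 h than at 0 h (all genes: 15.8% higher, 13.6% lower). At 12 h, 12 were higher and 13 lower (20.7% and 20.6%, in all 41.4%), and at 24 h 10 were higher and 15 lower (19.0% and 18.0%, in all 37.0%). At 30 °C the counts were 10 and 3 at 4 h (17.8% and 14.6%), 11 and 14 at 12 h (19.3% and 18.9%) and 12 and 7 at 24 h (15.3% and 14.4%). At 12 h and 22 °C this was 40.0% of the members higher and 43.3% lower, each above the share of all genes, while the 1 fall at 4 h (3.33%) was below it. Median member changes were 0.11, -0.18 and -0.43 at 22 °C and 0.04, -0.33 and 0.21 at 30 °C, beside all-gene medians between -0.10 and 0.03. With libraries rescaled to equal upper quartiles, the counts at 4 h and 22 °C were 10 higher and 3 lower.

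The time courses at both temperatures share no libraries. At 12 h, 11 members had risen and 12 had fallen at both, against 14.2% of all genes in each direction. Cpb2, Fga, Fgb, Fgg, Fgl1, Procr, Pros1 and Serpina10 were higher than at 0 h in all 6 comparisons, F5 was lower in all 6, and Serpinf2, which encodes the plasmin inhibitor α2-antiplasmin, was called in none. At 24 h, 9 members were higher at both temperatures and 7 lower at both (all genes 9.1% and 8.64%). A further 8 members were lower at 22 °C and not at 30 °C (all genes 18.0% lower at 22 °C and 14.4% at 30 °C). For F2 and Habp2 of these 8, the change itself was not called different between the temperatures. One of these 8, plasminogen (Plg), was higher than at 0 h at 30 °C.

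**Figure D1:**
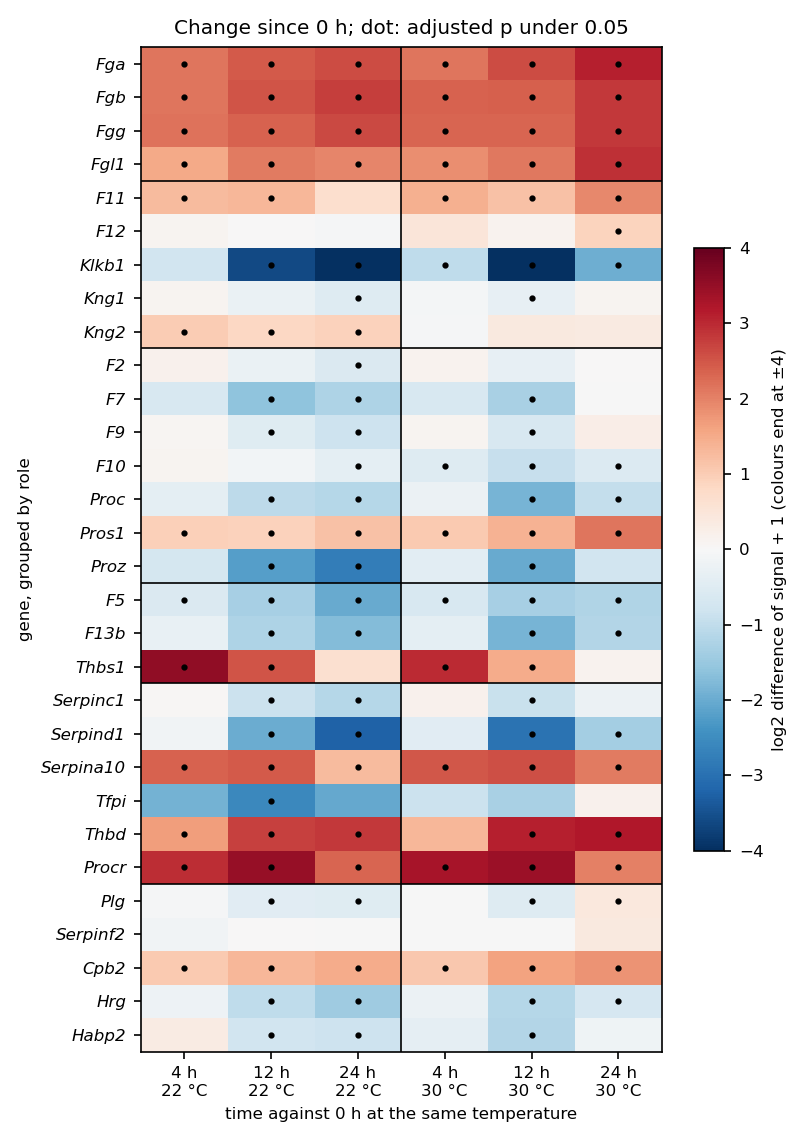
Log2 change of signal + 1 since 0 h (colour, red higher and blue lower, ending at ±4) for the 30 tested genes, in rows by role, at 4, 12 and 24 h and at each temperature, in columns. Dots mark calls (limma, BH-adjusted p under 0.05). The fibrinogen rows are red in every column, and most vitamin K-dependent genes turn blue at 12 h and less so at 24 h and 30 °C.

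The fibrinogen genes Fga, Fgb and Fgg, which encode the 3 chains of the clot's main protein, were the most abundant members and rose within 4 h, Fgb to 4.41 times its 0 h mean at 22 °C. Fgb signal at 22 °C was 6051, 7521, 6164 and 6334 at 0 h and 23451, 33876, 27366 and 30321 at 4 h. The 30 °C values were 6448, 5180.5, 4802, 6473 and 7196 at 0 h and 27384, 33736, 31118 and 29112 at 4 h. Every 4 h library lay above every 0 h library at either temperature. The log2 change at 4 h was 2.13 ± 0.12 (limma, BH-adjusted p = 1.16e-15) at 22 °C and 2.35 ± 0.12 (limma, BH-adjusted p = 1.59e-17) at 30 °C. Fga changed by 2.13 ± 0.24 and 2.13 ± 0.23, and Fgg by 2.18 ± 0.15 and 2.32 ± 0.15.

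By 24 h the same genes stood highest. Mean Fgb signal had reached 44372 ± 3836 (n = 5) at 22 °C and 42402 ± 4679 (n = 5) at 30 °C, 6.81 and 7.04 times the 0 h means. The log2 changes since 0 h were 2.77 ± 0.12 (limma, BH-adjusted p = 2.08e-19) and 2.83 ± 0.11 (limma, BH-adjusted p = 1.49e-20). Fga at 24 h had changed by 2.62 ± 0.23 at 22 °C and 3.11 ± 0.21 at 30 °C, and Fgg by 2.65 ± 0.15 and 2.84 ± 0.14. All 3 genes were higher at each later time at both temperatures. The later steps were smaller. Between 4 and 12 h at 22 °C, Fgb rose by 0.39 ± 0.12 (limma, BH-adjusted p = 0.0120), a call lost without 22 °C 4 h replicate 1 (highest limma, BH-adjusted p = 0.0818). Between 12 and 24 h at 30 °C, Fgb rose by 0.42 ± 0.12 (limma, BH-adjusted p = 0.00891), and Fgg by 0.50 ± 0.15, a call lost without 30 °C 12 h replicate 2 (highest limma, BH-adjusted p = 0.0520).

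As a share of all signal, the 3 fibrinogen genes made up 1.53 ± 0.167% (n = 4) at 22 °C and 1.5 ± 0.353% (n = 5) at 30 °C before LPS. At 4 h the shares were 5.32 ± 0.823% (n = 4) and 5.19 ± 1.22% (n = 4), and at 12 h 8.06 ± 0.567% (n = 5) and 8.51 ± 0.559% (n = 4). By 24 h they were 10.2 ± 0.945% (n = 5) and 10.1 ± 1.26% (n = 5), and neither temperature stood above the other at any time by more than the spread between libraries. Within the fibrinogen signal of a library, Fga took 19.6% to 46.1%, Fgb 31.5% to 50.8% and Fgg 22.4% to 31%.

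None of the 3 chains was called different between the temperatures at any time. At 24 h the difference, 30 °C minus 22 °C, was 0.15 ± 0.21 for Fga (95% interval -0.29 to 0.58), -0.07 ± 0.11 for Fgb (-0.29 to 0.16) and 0.01 ± 0.14 for Fgg (-0.27 to 0.29). Fgl1 behaved otherwise. It encodes hepassocin, a fibrinogen-like protein secreted by hepatocytes that does not form clots. Its signal at 24 h was 7305, 5724, 6511, 7578 and 9414 at 22 °C and 12527, 11588, 14050.5, 13673 and 17440.3 at 30 °C. All 30 °C libraries lay above all 22 °C ones. The difference was 0.93 ± 0.13 (limma, BH-adjusted p = 2.02e-06), and the change since 0 h was larger at 30 °C by 0.96 ± 0.18 (limma, BH-adjusted p = 0.000858). Since 0 h Fgl1 had risen at all times, by 1.53 ± 0.14, 2.08 ± 0.13 and 1.97 ± 0.13 at 22 °C and by 1.85 ± 0.13, 2.11 ± 0.13 and 2.93 ± 0.13 at 30 °C.

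**Figure D2:**
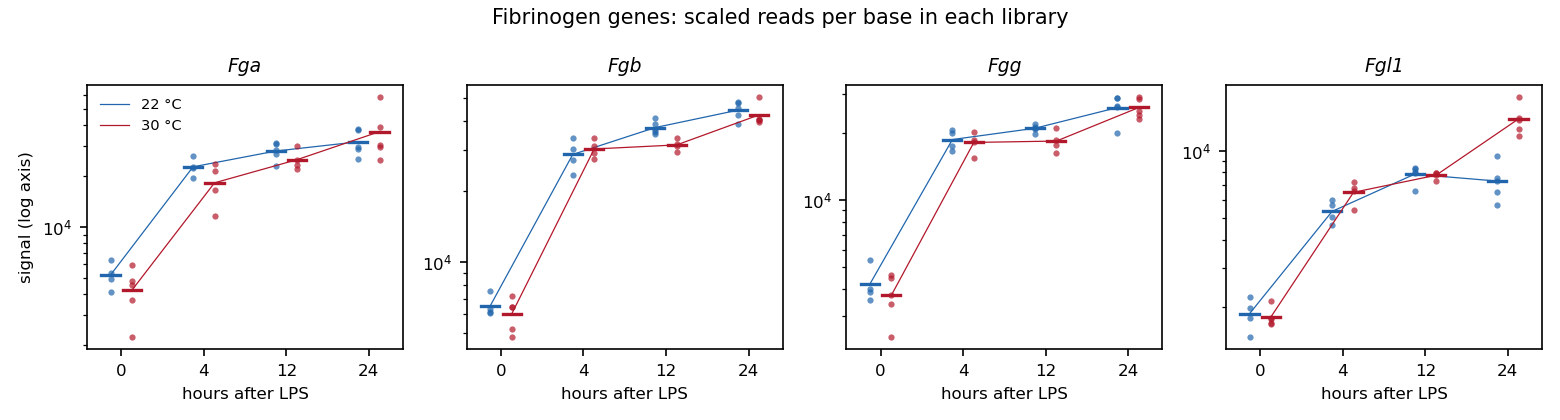
Signal (scaled reads per base, log axis) of the fibrinogen genes and Fgl1 against hours after LPS, at 22 °C (blue) and 30 °C (red). Dots are libraries, bars group means and lines join the means. All later libraries lie above those at 0 h, and at 24 h Fgl1 alone of the 4 separates the temperatures, at a mean of 13856 against 7306.

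Among the contact system genes, prekallikrein (Klkb1), whose protein is activated by factor XII and releases bradykinin from kininogen, showed the widest swing of any member. At 22 °C its signal was 308, 333, 350.1 and 292 at 0 h and 168, 208, 177 and 202 at 4 h. It was then 32.8, 39.3, 32.9, 18.5 and 12.9 at 12 h and 8.31, 15.2, 13.4, 14.1 and 20.6 at 24 h. The 0, 4 and 12 h groups did not overlap, and at 24 h a mean of 4.46% of the 0 h level was left. At 30 °C the signal was 393, 365, 298, 304 and 309 at 0 h, 171, 135, 215 and 148 at 4 h and 9.03, 5.16, 9.31 and 5.09 at 12 h. These last values lay close to the signal worth 3 reads. At 24 h and 30 °C it was 146, 46.7, 173, 44.9 and 86.6, and each of these libraries lay above every 12 h library at that temperature and above every 24 h library at 22 °C.

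In the model Klkb1 changed since 0 h by -0.76 ± 0.33 at 4 h and 22 °C (limma, BH-adjusted p = 0.0808, not called), then by -3.61 ± 0.31 (limma, BH-adjusted p = 2.69e-11) at 12 h and -4.44 ± 0.31 (limma, BH-adjusted p = 2.27e-13) at 24 h. At 30 °C it fell at 4 h (-1.01 ± 0.31, limma, BH-adjusted p = 0.0123), and at 24 h it was still lower than at 0 h (-1.94 ± 0.30, limma, BH-adjusted p = 3.58e-06). From 12 to 24 h at 30 °C it rose by 3.46 ± 0.31 (limma, BH-adjusted p = 4.45e-10), whereas at 22 °C that step was -0.83 ± 0.30 (limma, BH-adjusted p = 0.0664). It was thus lower at 30 °C than at 22 °C at 12 h (-1.73 ± 0.31, limma, BH-adjusted p = 0.000786) and higher at 24 h (2.55 ± 0.30, limma, BH-adjusted p = 1.47e-07). The change since 0 h differed between temperatures at 24 h by 2.50 ± 0.43 (limma, BH-adjusted p = 0.000268). At 12 h that difference was -1.79 ± 0.44 (limma, BH-adjusted p = 0.0685), which was called in 5 of the alternatives tried. In the annotation, 43.2% of the 31-mers of Klkb1 transcripts also occur in other genes, so reads could be divided among them. The predicted gene Gm45753 shared the most. Gm45753 was listed at 0 in 35 of the 36 libraries.

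Factor XI (F11), a zymogen activated by thrombin or factor XII that in turn activates factor IX, lies next to Klkb1 on chromosome 8 and moved the other way. Its levels were low. At 22 °C the signal was 2.29, 16.4, 5.52 and 7.91 at 0 h, 16.1, 29.4, 22.3, 20.7 and 8.47 at 12 h and 13, 9.92, 8.16, 7.98 and 19.3 at 24 h. At 30 °C it was 0.714, 3.14, 10.4, 13 and 3.89 at 0 h, 12.2, 14.7, 6.67 and 15.0 at 12 h and 26.2, 19.4, 18.0, 14.9 and 26.5 at 24 h. At 22 °C the 12 h and 24 h libraries overlapped with those at 0 h, and at 30 °C the 12 h libraries did and the 24 h libraries did not. F11 was called higher at 4 h at 22 °C (1.27 ± 0.48, limma, BH-adjusted p = 0.0406), a call lost without any 1 of 22 °C 0 h replicates 1, 3 and 4 and 22 °C 4 h replicates 1, 2, 3 and 4 (highest limma, BH-adjusted p = 0.198). At 12 h and 22 °C the change was 1.33 ± 0.45 (limma, BH-adjusted p = 0.0178), lost without 22 °C 0 h replicate 1 and 22 °C 12 h replicate 2 (highest limma, BH-adjusted p = 0.119). At 30 °C F11 rose by 1.41 ± 0.45 (limma, BH-adjusted p = 0.0151) at 4 h, a call lost without 30 °C 0 h replicate 1 (highest limma, BH-adjusted p = 0.0755). It rose by 1.17 ± 0.45 at 12 h, lost without any 1 of 30 °C 0 h replicates 1, 2 and 5 and 30 °C 12 h replicates 1, 2 and 4 (highest limma, BH-adjusted p = 0.173), with the log2 change between 0.74 and 1.5 when single libraries were left out. At 24 h and 30 °C it was higher by 1.94 ± 0.43 (limma, BH-adjusted p = 0.000598), and no single library ended that call. At 24 h and 22 °C F11 was not called (0.67 ± 0.45, limma, BH-adjusted p = 0.260), and the difference between these 24 h changes was not called either (1.27 ± 0.62, limma, BH-adjusted p = 0.220).

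The kininogen gene Kng1, the substrate of kallikrein, was abundant and moved little. Its signal was 2451 ± 342 (n = 4) at 0 h and 1713 ± 216 (n = 5) at 24 h at 22 °C, a change of -0.52 ± 0.13 (limma, BH-adjusted p = 0.00186). The 30 °C mean was 2544 ± 289 (n = 5) at 0 h, 2019.7 ± 305 (n = 4) at 12 h and 2775 ± 367 (n = 5) at 24 h. The fall at 12 h (-0.34 ± 0.13, limma, BH-adjusted p = 0.0372) was lost without any 1 of 30 °C 0 h replicates 1 and 5 and 30 °C 12 h replicates 3 and 4 (highest limma, BH-adjusted p = 0.197). Kng2, the second kininogen gene of the mouse, was higher than at 0 h at all 3 times at 22 °C (1.01 ± 0.25, 0.83 ± 0.24 and 0.92 ± 0.24) and at none at 30 °C (-0.05 ± 0.24, 0.38 ± 0.24 and 0.37 ± 0.22). The difference between these changes was -1.06 ± 0.34 (limma, BH-adjusted p = 0.459) at 4 h, -0.45 ± 0.33 at 12 h and -0.55 ± 0.32 at 24 h, called at none of them. Kng1 and Kng2 share 26.5% and 30.6% of their 31-mers, so their split is uncertain. Factor XII (F12), the zymogen that starts the contact pathway, was called at 30 °C and 24 h (0.90 ± 0.23, limma, BH-adjusted p = 0.00325 since 0 h) and in no other change since 0 h.

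The vitamin K-dependent proteins carry a modified glutamate domain that binds calcium and phospholipid. At 12 h, 4 of the 7 were lower and 1 was higher than at 0 h at 22 °C, and 5 were lower and 1 higher at 30 °C (all genes 20.6% and 18.9% lower). At 24 h, 6 of 7 were lower and 1 higher at 22 °C, and 2 were lower and 1 higher at 30 °C (all genes 18.0% and 14.4% lower). The 24 h change itself differed between the temperatures for 3 of the 7, Proz, F7 and F9, by the limma test given further on. The member that rose each time was Pros1.

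Factor VII (F7), the protease that binds tissue factor, had signals of 89.9, 70.6, 94.1 and 51.0 at 0 h, 30.7, 24.7, 21.8, 19.3 and 24.6 at 12 h and 33.8, 32.0, 27.4, 35.4 and 27.1 at 24 h at 22 °C. The 12 and 24 h libraries all lay below those at 0 h, while those at 4 h, at 42.6 to 52.9, overlapped with them. The change was -1.59 ± 0.27 (limma, BH-adjusted p = 1.03e-05) at 12 h and -1.24 ± 0.27 at 24 h. At 30 °C, F7 was 100.1, 54.5, 38.7, 61.9 and 48.9 at 0 h, 13.8, 33.9, 31.4 and 18.4 at 12 h and 61.0, 98.1, 58.0, 33.5 and 54.8 at 24 h. The 12 h libraries lay below those at 0 h and the 24 h libraries spread across them, with changes of -1.30 ± 0.27 (limma, BH-adjusted p = 0.000169) and -0.00 ± 0.25 (limma, BH-adjusted p = 0.998). From 12 to 24 h at 30 °C, F7 rose by 1.30 ± 0.27 (limma, BH-adjusted p = 0.000456).

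Factor IX (F9), which with factor VIII activates factor X, did not pass at 4 h (0.07 ± 0.18 at 22 °C and 0.10 ± 0.17 at 30 °C). The 22 °C signal was 328, 319, 264 and 200.2 at 0 h and 136, 162, 149.7, 172 and 151 at 24 h, without overlap. The 24 h change was -0.83 ± 0.17 (limma, BH-adjusted p = 0.000247). The smaller 12 h fall (-0.49 ± 0.17, limma, BH-adjusted p = 0.0221) was lost without any 1 of 22 °C 0 h replicates 1 and 2 and 22 °C 12 h replicate 4 (highest limma, BH-adjusted p = 0.0909). At 30 °C, F9 was 255, 299, 209.7, 279.6 and 173 at 0 h, 173, 122, 214 and 118 at 12 h and 305, 256, 253, 299.5 and 324 at 24 h. It fell at 12 h (-0.65 ± 0.17, limma, BH-adjusted p = 0.00283), rose by 0.91 ± 0.17 (limma, BH-adjusted p = 0.000176) from 12 to 24 h, and at 24 h differed from 0 h by 0.26 ± 0.16 (limma, BH-adjusted p = 0.237).

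Protein Z (Proz), a cofactor that helps the serpin Serpina10 to block factor Xa, fell furthest of this class. At 22 °C the signal was 59.0, 61.0, 69.5 and 75.8 at 0 h, 20.8, 26.4, 14.1, 5.60 and 10.2 at 12 h and 8.70, 10.7, 6.13, 4.66 and 20.2 at 24 h. The 30 °C libraries read 42.7, 57.5, 58.6, 56.6 and 60.8 at 0 h, 10.4, 23.7, 6.68 and 16.1 at 12 h and 45.2, 24.3, 42.3, 19.1 and 35.3 at 24 h. The 12 h libraries lay below all 0 h libraries at both temperatures. The 24 h change was -2.75 ± 0.35 (limma, BH-adjusted p = 9.35e-08) at 22 °C and -0.78 ± 0.33 (limma, BH-adjusted p = 0.0743) at 30 °C. The rise from 12 to 24 h at 30 °C (1.23 ± 0.35, limma, BH-adjusted p = 0.0103) was lost without 30 °C 12 h replicate 3 (highest limma, BH-adjusted p = 0.0695).

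Protein C (Proc), the zymogen of an anticoagulant protease that destroys factors Va and VIIIa, fell at 22 °C, with changes of -1.04 ± 0.20 (limma, BH-adjusted p = 7.06e-05) at 12 h and -1.14 ± 0.20 (limma, BH-adjusted p = 2.14e-05) at 24 h. At 30 °C it also fell, with -1.84 ± 0.20 (limma, BH-adjusted p = 3.08e-09) at 12 h and -0.94 ± 0.19 (limma, BH-adjusted p = 0.000209) at 24 h. Its mean signal at 30 °C was 139 ± 18.5 (n = 5) at 0 h, 38.3 ± 8.20 (n = 4) at 12 h and 72.3 ± 13.7 (n = 5) at 24 h. It rose by 0.91 ± 0.20 (limma, BH-adjusted p = 0.00105) over the last step. Prothrombin (F2), the precursor of thrombin, was lower at 24 h and 22 °C (-0.58 ± 0.15, limma, BH-adjusted p = 0.00183) and was called in no other change since 0 h. Factor X (F10), the enzyme that cuts prothrombin, had a mean signal of 251 ± 11.7 (n = 5) at 0 h and 133 ± 20.9 (n = 4) at 12 h at 30 °C. It fell there at 4 h (-0.52 ± 0.15, limma, BH-adjusted p = 0.00746), a call lost without 30 °C 4 h replicate 2 (highest limma, BH-adjusted p = 0.0562), and at 12 h (-0.92 ± 0.15, limma, BH-adjusted p = 8.19e-06). It stayed lower at 24 h (-0.53 ± 0.14, limma, BH-adjusted p = 0.00435). At 22 °C the single called fall of F10, at 24 h (-0.38 ± 0.15, limma, BH-adjusted p = 0.0493), was lost without any 1 of 22 °C 0 h replicates 1, 2, 3 and 4 and 22 °C 24 h replicates 1, 3 and 5 (highest limma, BH-adjusted p = 0.152).

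Protein S (Pros1), the cofactor of activated protein C, rose while protein C fell. Its signal at 22 °C was 5.58, 11.0, 10.9 and 10.8 at 0 h and 22.2, 15.0, 26.4, 23.0 and 26.5 at 24 h. At 30 °C the values were 12.9, 12.4, 7.23, 6.96 and 10.5 at 0 h and 43.3, 42.3, 39.1, 63.7 and 44.2 at 24 h. Neither pair of groups overlapped. The changes were 1.17 ± 0.25 (limma, BH-adjusted p = 0.000247) and 2.13 ± 0.23 (limma, BH-adjusted p = 5.56e-09), and Pros1 was also higher at 4 h (0.94 ± 0.26 and 1.04 ± 0.25) and 12 h (0.92 ± 0.25 and 1.39 ± 0.25).

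**Figure D3:**
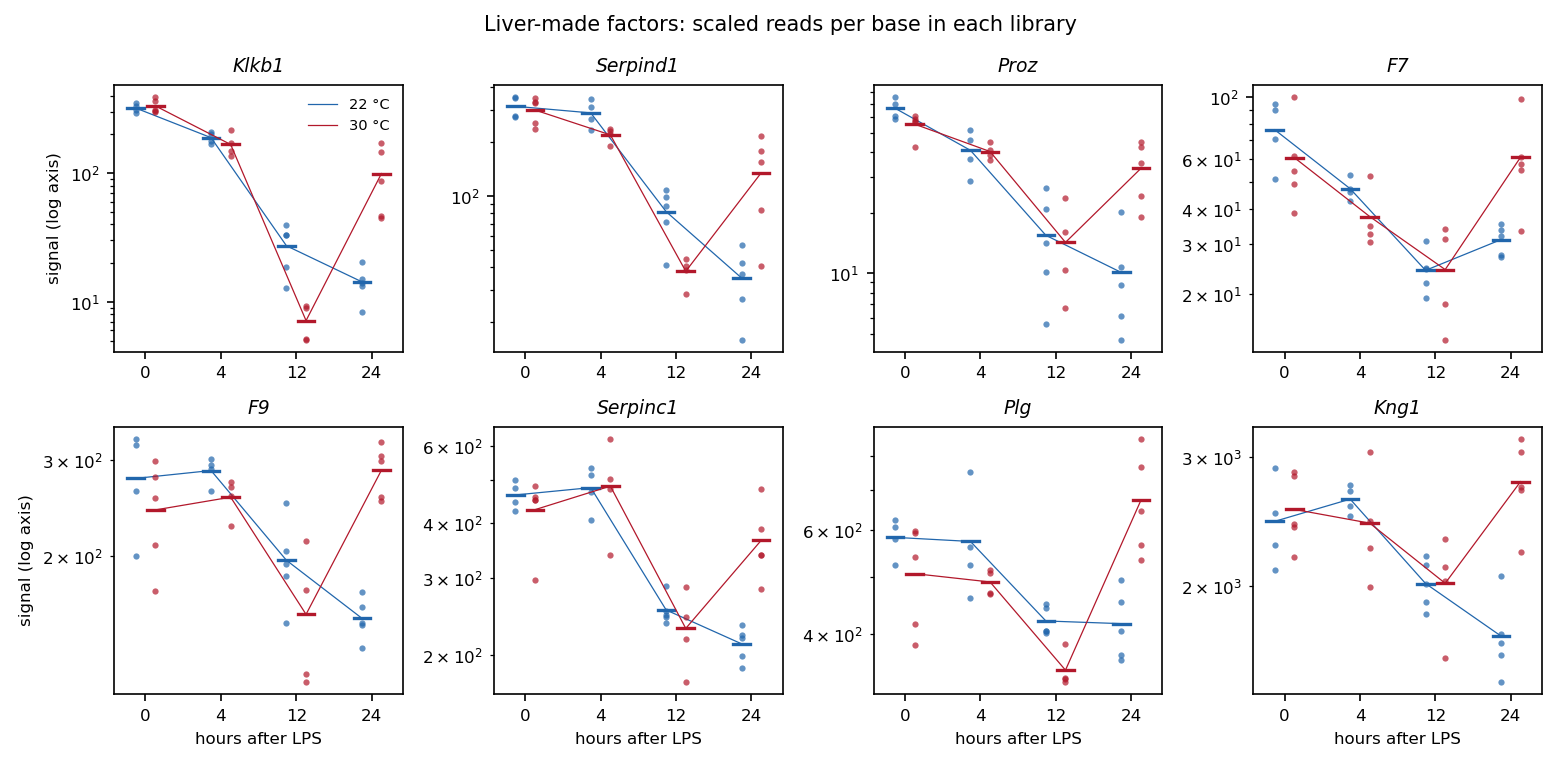
Signal (scaled reads per base, log axis) of Klkb1, Serpind1, Proz, F7, F9, Serpinc1, Plg and Kng1 against hours after LPS, at 22 °C (blue) and 30 °C (red). Dots are libraries and bars group means. In all 8 genes the 24 h mean at 30 °C lies above that at 22 °C, from 99.4 against 14.3 for Klkb1 to 2775 against 1713 for Kng1.

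Factor V (F5), the cofactor with which factor Xa cuts prothrombin, was the 1 member that was lower in all 6 comparisons with 0 h. Signals at 22 °C were 1566, 1202, 1637 and 1605 at 0 h, 794, 521, 701, 573 and 454 at 12 h and 354, 459, 556, 285 and 269 at 24 h. The 0 h libraries lay above all of those at 12 and 24 h. It fell at 4 h (-0.59 ± 0.22, limma, BH-adjusted p = 0.0387), a call lost without any 1 of 22 °C 0 h replicates 1, 3 and 4 and 22 °C 4 h replicates 1 and 2 (highest limma, BH-adjusted p = 0.133). It fell further by 12 h (-1.32 ± 0.21 since 0 h) and 24 h (-2.01 ± 0.21, limma, BH-adjusted p = 1.34e-09). At 30 °C it fell at 4 h (-0.65 ± 0.21, limma, BH-adjusted p = 0.0151), a call lost without 30 °C 4 h replicate 2 (highest limma, BH-adjusted p = 0.0588), and was lower at 12 h (-1.33 ± 0.21) and at 24 h (-1.20 ± 0.20, limma, BH-adjusted p = 1.11e-05). The carrier subunit of factor XIII (F13b), whose partner crosslinks fibrin, was not called at 4 h and fell at 12 h, with changes of -1.23 ± 0.26 (limma, BH-adjusted p = 0.000288) at 22 °C and -1.85 ± 0.26 (limma, BH-adjusted p = 5.86e-07) at 30 °C. At 24 h it was also lower (-1.73 ± 0.26 and -1.18 ± 0.25).

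Thrombospondin 1 (Thbs1), an adhesive glycoprotein of platelet granules and many tissue cells, rose early and briefly. Its 22 °C signal was 2.04, 1.83, 2.09 and 0.778 at 0 h, 40.0, 31.1, 16.5 and 38.2 at 4 h and 4.48, 1.35, 4.25, 1.77 and 5.20 at 24 h. The 30 °C signals were 3.79, 3.48, 8.34, 1.93 and 0.694 at 0 h, 29.7, 33.1, 34.2 and 24.8 at 4 h and 1.90, 3.63, 3.18, 11.0 and 1.38 at 24 h. The 4 h libraries lay above all others of these groups, and most 0 h values were at or below the worth of 3 reads, so the log2 changes depend on the 1 that was added. They were 3.56 ± 0.43 (limma, BH-adjusted p = 4.01e-08) and 2.97 ± 0.41 (limma, BH-adjusted p = 4.18e-07) at 4 h and 2.52 ± 0.41 and 1.49 ± 0.41 at 12 h. At 24 h Thbs1 was not called against 0 h (0.65 ± 0.41 and 0.14 ± 0.38). Summed platelet and megakaryocyte markers (7 genes) lay at 3.64 to 15.7 at 0 h and 31.7 to 51.2 at 4 h at 22 °C. At 30 °C they lay at 4.26 to 14.2 at 0 h and 19.4 to 32.9 at 4 h, with Gp5 and Gp9 listed at 0 in both 0 h groups. Their part in the Thbs1 result was not tested.

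Antithrombin (Serpinc1), the main plasma inhibitor of thrombin and factor Xa, was not called at 4 h (0.05 ± 0.17 at 22 °C and 0.17 ± 0.16 at 30 °C). The signal at 22 °C was 446, 479, 426 and 502 at 0 h, 247, 287, 243, 252 and 236 at 12 h and 199, 186, 218, 222 and 234 at 24 h. The 30 °C values were 486, 452, 297, 458 and 451 at 0 h, 173, 244, 285 and 217 at 12 h and 338, 283, 387, 339 and 478 at 24 h. At 12 h every library lay below the 0 h libraries of its temperature, and at 24 h that remained so at 22 °C alone. The changes at 12 h were -0.87 ± 0.16 (limma, BH-adjusted p = 5.39e-05) and -0.90 ± 0.16 (limma, BH-adjusted p = 3.22e-05). At 24 h the changes were -1.13 ± 0.16 (limma, BH-adjusted p = 1.02e-06) at 22 °C and -0.23 ± 0.15 (limma, BH-adjusted p = 0.269) at 30 °C.

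Heparin cofactor II (Serpind1), a thrombin inhibitor activated by dermatan sulfate, fell much further. At 22 °C its signal was 349.5, 278, 274 and 355 at 0 h, 266, 343, 233 and 312 at 4 h, 99.0, 88.1, 71.6, 108 and 41.5 at 12 h and 42.3, 26.8, 15.9, 36.6 and 53.3 at 24 h. At 30 °C the signals were 333, 328, 234, 254 and 348 at 0 h, 219.8, 228, 189 and 234 at 4 h, 28.5, 38.7, 44.5 and 40.7 at 12 h and 177, 83.5, 215, 40.7 and 154 at 24 h. The 12 h libraries lay below all 0 h and 4 h libraries at both temperatures, and at 24 h the lowest 30 °C library still lay among those of 22 °C. The change at 12 h was -1.99 ± 0.33 (limma, BH-adjusted p = 8.22e-06) at 22 °C and -2.94 ± 0.33 (limma, BH-adjusted p = 5.64e-09) at 30 °C. From 12 to 24 h it fell further at 22 °C (-1.23 ± 0.31, limma, BH-adjusted p = 0.00719) and rose at 30 °C (1.59 ± 0.33, limma, BH-adjusted p = 0.000506).

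Serpina10, the protein Z-dependent inhibitor of factors Xa and XIa, rose while its cofactor Proz fell. Its signal at 22 °C was 229.9, 254, 281 and 226 at 0 h, 1273, 1209, 1397 and 1206 at 4 h, 1498, 1211, 1502, 1244 and 1405 at 12 h and 703, 577, 585, 456 and 666 at 24 h. The 30 °C signals were 214, 216, 154, 159.9 and 205 at 0 h, 1310.4, 1196, 1037 and 778 at 4 h, 1172, 1221, 1187 and 976 at 12 h and 798, 749, 915, 590.4 and 1006 at 24 h. Every later library lay above every 0 h library. The changes at 4 h were 2.36 ± 0.16 (limma, BH-adjusted p = 8.43e-14) and 2.49 ± 0.15 (limma, BH-adjusted p = 4.84e-15), close in size to those of the fibrinogen chains. From 12 to 24 h Serpina10 fell at 22 °C (-1.21 ± 0.14, limma, BH-adjusted p = 5.12e-07) and at 30 °C (-0.51 ± 0.15, limma, BH-adjusted p = 0.0160), the latter lost without 30 °C 12 h replicate 2 and 30 °C 24 h replicate 4 (highest limma, BH-adjusted p = 0.0610). None of the fibrinogen chains fell over that step at either temperature.

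The receptors of the protein C pathway, which sit mainly on endothelium, rose from levels near 0. The endothelial protein C receptor (Procr) had signals of 1.63, 0.728, 0 and 1.87 at 0 h, 14.6, 15.3, 13.1 and 12.6 at 4 h, 23.9, 26.8, 18.8, 21.2 and 13.8 at 12 h and 11.5, 14.6, 3.62, 6.37 and 10.7 at 24 h at 22 °C. At 30 °C they were 0, 3.35, 1.11, 1.54 and 0.828 at 0 h, 21.7, 27.8, 13 and 18.7 at 4 h, 16.2, 22.4, 21.8 and 28.2 at 12 h and 7.31, 6.35, 16.3, 8.22 and 3.98 at 24 h. No later library overlapped with those at 0 h. The changes were 2.97 ± 0.40 (limma, BH-adjusted p = 4.36e-07) and 3.28 ± 0.38 (limma, BH-adjusted p = 1.83e-08) at 4 h and 3.49 ± 0.38 and 3.43 ± 0.38 at 12 h, with the 0 h values under the estimated worth of 3 reads in every library. At 24 h they were 2.32 ± 0.38 and 2.03 ± 0.36. Procr fell from 12 to 24 h at 30 °C (-1.39 ± 0.38, limma, BH-adjusted p = 0.00825) and at 22 °C (-1.17 ± 0.36, limma, BH-adjusted p = 0.0323), the latter lost without any 1 of 22 °C 12 h replicates 1, 2, 3 and 4 and 22 °C 24 h replicates 3 and 4 (highest limma, BH-adjusted p = 0.117).

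Thrombomodulin (Thbd), which turns thrombin into an activator of protein C, was higher than at 0 h at 12 and 24 h at both temperatures. Its signal was 2.46, 4.41, 0 and 1.42 at 0 h and 25.6, 12.3, 12.1, 12.9 and 31.1 at 24 h at 22 °C, and 0, 3.80, 0, 3.50 and 1.25 at 0 h and 15.9, 43.3, 8.70, 29.7 and 13.1 at 24 h at 30 °C. The groups did not overlap at either temperature. Most 0 h values were at or below the estimated worth of 3 reads, so the log2 changes of Thbd depend on the 1 that was added. The 12 h changes were 2.73 ± 0.60 (limma, BH-adjusted p = 0.000407) and 3.10 ± 0.60 (limma, BH-adjusted p = 8.54e-05), and those at 24 h 2.82 ± 0.60 and 3.20 ± 0.57. The 4 h rise at 22 °C (1.66 ± 0.64, limma, BH-adjusted p = 0.0464) was lost without any 1 of 22 °C 0 h replicates 1, 3 and 4 and 22 °C 4 h replicates 1, 3 and 4 (highest limma, BH-adjusted p = 0.191), and at 30 °C Thbd was not called at 4 h (1.34 ± 0.60, limma, BH-adjusted p = 0.0889). Summed markers of sinusoidal endothelium (13 genes) moved the other way. They lay at 442 to 511 at 0 h and 212 to 320.5 at 12 h at 22 °C, and at 453 to 557 and 191 to 272 at 30 °C. Those of neutrophils and monocytes (10 genes) moved with Thbd and Procr. They lay at 36.5 to 48.5 at 0 h and 273 to 356 at 12 h at 22 °C, and at 40.6 to 77.6 and 375 to 618 at 30 °C, with Cd177 and Retnlg listed at 0 before LPS. Their part in the receptor results was not tested.

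Tissue factor pathway inhibitor (Tfpi), which blocks factor VII bound to tissue factor, was low and scattered, at 10.5 to 37.5 at 0 h and 0 to 16.3 at 12 h at 22 °C. Its 1 called change since 0 h, at 12 h and 22 °C (-2.59 ± 1.06, limma, BH-adjusted p = 0.0492), was lost without any 1 of 22 °C 0 h replicates 1, 2, 3 and 4 and 22 °C 12 h replicates 1, 4 and 5 (highest limma, BH-adjusted p = 0.126).

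**Figure D4:**
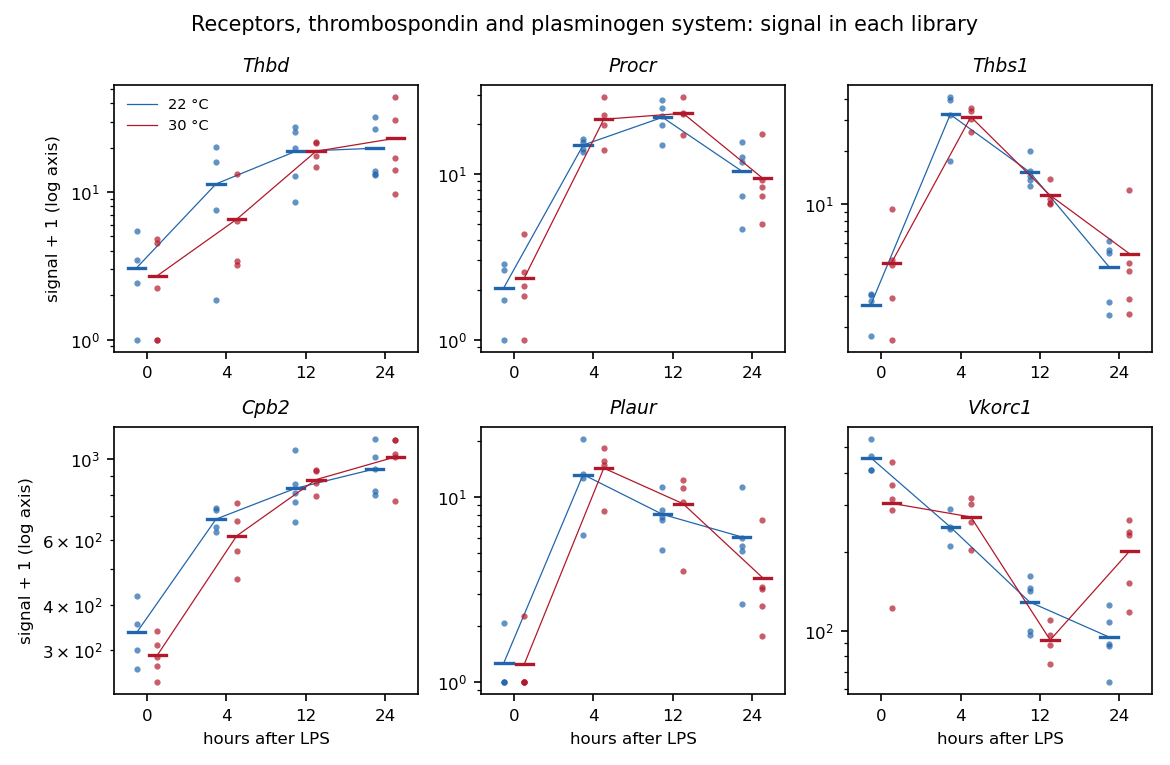
Signal + 1 (scaled reads per base, log axis) of Thbd, Procr, Thbs1, Cpb2, Plaur and Vkorc1 against hours after LPS, at 22 °C (blue) and 30 °C (red). Dots are libraries and bars group means. Procr, Thbs1 and Plaur peak at 4 or 12 h, Thbd and Cpb2 stay high at 24 h, and at that time Vkorc1 is higher at 30 °C.

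Of the 5 tested genes of fibrinolysis, 3 were lower and 1 higher at 12 h at each temperature (all genes 20.6% and 18.9% lower, 20.7% and 19.3% higher). Plasminogen (Plg), the zymogen of plasmin, had signals of 623, 524, 578 and 606 at 0 h, 405, 403, 405, 450.0 and 443 at 12 h and 368, 495, 406, 361 and 454 at 24 h at 22 °C. At 30 °C they were 541, 597, 384, 417 and 592 at 0 h, 336, 338, 385 and 332 at 12 h and 565, 534, 765, 855 and 647 at 24 h. At 22 °C the 12 and 24 h libraries lay below those at 0 h, while those at 4 h, at 461 to 750, overlapped with them. At 30 °C the highest 24 h libraries lay above every 0 h library. Plg fell at 12 h at both temperatures (-0.47 ± 0.15, limma, BH-adjusted p = 0.0102 at 22 °C and -0.52 ± 0.15, limma, BH-adjusted p = 0.00471 at 30 °C). At 24 h it was lower at 22 °C (-0.49 ± 0.15, limma, BH-adjusted p = 0.00790) and higher at 30 °C (0.41 ± 0.14, limma, BH-adjusted p = 0.0225), the latter lost without any 1 of 30 °C 0 h replicates 3 and 4 and 30 °C 24 h replicates 3 and 4 (highest limma, BH-adjusted p = 0.0939).

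Cpb2, a carboxypeptidase that thrombin activates and that protects fibrin from plasmin, was higher than at 0 h at all 3 later times at both temperatures. Its signal at 22 °C was 352, 420.1, 266 and 300.4 at 0 h and 799.6, 816, 1012, 939 and 1136 at 24 h. At 30 °C the values were 338, 309, 271, 286 and 245 at 0 h and 770.3, 1127, 1035, 1014 and 1127 at 24 h. Neither pair of groups overlapped. The changes were 1.5 ± 0.15 (limma, BH-adjusted p = 9.35e-10) and 1.80 ± 0.14 (limma, BH-adjusted p = 4.08e-12), after 1.05 ± 0.16 and 1.07 ± 0.15 at 4 h. Histidine-rich glycoprotein (Hrg), which binds plasminogen and heparin, fell at 12 h, with changes of -1.02 ± 0.19 (limma, BH-adjusted p = 3.36e-05) at 22 °C and -1.15 ± 0.19 (limma, BH-adjusted p = 5.53e-06) at 30 °C. Its mean signal was 245 ± 17.5 (n = 4) at 0 h and 120.0 ± 10.7 (n = 5) at 12 h at 22 °C. Habp2, a plasma protease that can activate factor VII and pro-urokinase, fell at 12 h and 30 °C (-1.17 ± 0.28, limma, BH-adjusted p = 0.00115). At 22 °C its falls at 12 h (-0.78 ± 0.28, limma, BH-adjusted p = 0.0269) and 24 h (-0.84 ± 0.28, limma, BH-adjusted p = 0.0194) were lost without any 1 of 22 °C 0 h replicates 2, 3 and 4 and 22 °C 12 h replicate 1 (highest limma, BH-adjusted p = 0.187) and without 22 °C 0 h replicate 2 (highest limma, BH-adjusted p = 0.147). The 12 h value ran from -1.12 to -0.49 when single libraries were left out, and the 24 h value from -1.18 to -0.54. Serpinf2 was at 325 ± 123 (n = 4) at 0 h and 309.6 ± 72.0 (n = 5) at 24 h at 22 °C and at 214 ± 27.0 (n = 5) and 278 ± 24.1 (n = 5) at 30 °C.

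Before LPS, 0 of the 30 members differed between the temperatures with limma (3 at an unadjusted p under 0.05), against 0.506% of all genes, 0.0919% being higher at 30 °C. At 4 h the count was also 0 (2 unadjusted; all genes 0.207%, with 0.023% higher). At 12 h, Klkb1 and F10 were lower at 30 °C and no member was higher (10 members unadjusted; all genes 3.29% lower and 0.977% higher). F10 differed by -0.55 ± 0.15 (limma, BH-adjusted p = 0.0276), a call lost without any 1 of 22 °C 12 h replicates 2 and 4 and 30 °C 12 h replicates 1 and 4 (highest limma, BH-adjusted p = 0.139).

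At 24 h, 15 of the 30 members were higher at 30 °C and none was lower, against 9.93% of all genes higher and 8.71% lower. The median member difference was 0.57, beside -0.03 over all genes. After Klkb1, the largest differences were in Serpind1 (1.80 ± 0.31, limma, BH-adjusted p = 7.26e-05), Proz (1.71 ± 0.33, limma, BH-adjusted p = 0.000291) and Pros1 (1.01 ± 0.23, limma, BH-adjusted p = 0.00189). Higher by between 0.5 and 1 were Fgl1, Habp2 (0.93 ± 0.27), F9 (0.89 ± 0.16), F7 (0.88 ± 0.25), Serpinc1 (0.76 ± 0.15), Kng1 (0.69 ± 0.12), Plg (0.68 ± 0.14), F12 (0.65 ± 0.23) and Hrg (0.60 ± 0.17). F2 (0.44 ± 0.14) and Serpina10 (0.43 ± 0.14) differed by less. The largest limma, BH-adjusted p of the 15 was that of F12, 0.0462. By role these were 1 of 4 of the fibrinogen group, 3 of 5 of the contact system, 5 of 7 vitamin K-dependent genes, 3 of 6 inhibitors and receptors, 3 of 5 of fibrinolysis and 0 of 3 cofactors.

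For Pros1, F9, F2, Habp2, Serpinc1, Plg and Kng1, as for Klkb1 and Fgl1, the libraries of the temperatures did not overlap at 24 h. These 9 members all lay above at 30 °C, as did 5.62% of all tested genes, while 5.72% lay below. F9, for example, lay at 136 to 172 at 22 °C and 253 to 324 at 30 °C, and Habp2 at 10.5 to 17.5 and 24.5 to 31. Some of the other calls rested on single libraries. That of F12 was lost without any 1 of 22 °C 24 h replicates 1, 3, 4 and 5 and 30 °C 24 h replicates 1, 3, 4 and 5 (highest limma, BH-adjusted p = 0.137). That of Serpina10 was lost without any 1 of 22 °C 24 h replicates 2, 3 and 4 and 30 °C 24 h replicates 1, 3 and 5 (highest limma, BH-adjusted p = 0.112). F2 lost its call without 22 °C 24 h replicate 1 and 30 °C 24 h replicate 5 (highest limma, BH-adjusted p = 0.0593), and F7 without 30 °C 24 h replicate 2 (highest limma, BH-adjusted p = 0.0562). The genes that did not pass included F11 (0.83 ± 0.43, limma, BH-adjusted p = 0.182), Tfpi (1.93 ± 1.00, limma, BH-adjusted p = 0.189) and F13b (0.53 ± 0.25, limma, BH-adjusted p = 0.144), whose intervals reached -0.03 to 1.70, -0.10 to 3.97 and 0.02 to 1.03.

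The change since 0 h itself differed between the temperatures for 10 members at 24 h, all of them larger or less negative at 30 °C, against 5.07% of all genes in that direction and 3.88% in the other (8.95% in all). These were Klkb1, Proz (1.98 ± 0.48, limma, BH-adjusted p = 0.00743), Serpind1 (1.87 ± 0.45, limma, BH-adjusted p = 0.00703), F7 (1.24 ± 0.37, limma, BH-adjusted p = 0.0288), F9 (1.09 ± 0.24, limma, BH-adjusted p = 0.00308), Fgl1, Plg (0.90 ± 0.20), Serpinc1 (0.89 ± 0.22), Serpina10 (0.83 ± 0.21) and Kng1 (0.64 ± 0.18). The call of F7 was lost without any 1 of 22 °C 0 h replicates 1 and 3, 22 °C 24 h replicate 3, 30 °C 0 h replicate 3 and 30 °C 24 h replicate 2 (highest limma, BH-adjusted p = 0.0656), and that of Kng1 without 22 °C 0 h replicate 4 (highest limma, BH-adjusted p = 0.0588). At 4 h and at 12 h, 0 members passed this test with limma (2 and 4 at an unadjusted p under 0.05; all genes 0.0115% and 0.276%, the latter with 0.0689% larger at 30 °C).

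Between 12 and 24 h at 30 °C, 15 members rose and 3 fell (all genes 11.6% and 9.52%, in all 21.1%). Over the same step at 22 °C no member rose and 5 fell (4.02% and 6.6%). Between 4 and 12 h the counts were 2 higher and 14 lower at 22 °C (11.9% and 14.4%) and 2 and 13 at 30 °C (12.3% and 17.9%, in all 30.2%), where rescaling to equal upper quartiles gave 5 and 9. At 24 h the summed hepatocyte markers lay at 9074 to 13709 at 22 °C and 7422 to 13213 at 30 °C, and 1 of the 5 was called higher at 30 °C. Summed sinusoidal endothelial markers lay at 195 to 354 and 314 to 407, with 6 of 12 tested called higher at 30 °C and Clec4g listed at 0 at 22 °C. Their part in the temperature differences was not tested.

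**Figure D5:**
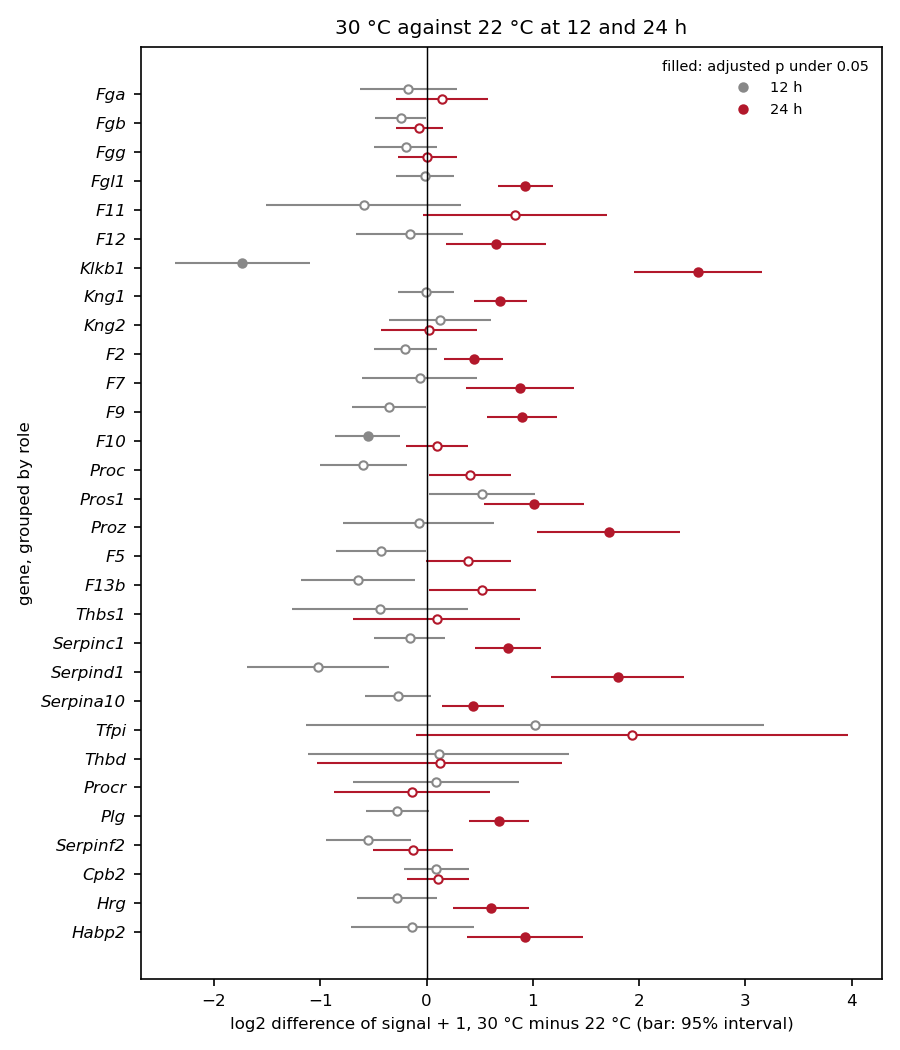
Difference in log2(signal + 1), 30 °C minus 22 °C, for the 30 tested genes by role at 12 h (grey) and 24 h (red). Points are model estimates, bars 95% intervals, and filled points are calls (limma, BH-adjusted p under 0.05). At 12 h the 2 calls, Klkb1 and F10, lie left of 0, and at 24 h all 15 calls lie to the right.

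Other genes of the pathway came from lists. Of the vitamin K cycle genes, which make the modified glutamates possible, 2 of 3 were tested. Vkorc1, the warfarin-sensitive vitamin K epoxide reductase, had a signal of 462, 409, 408 and 536 at 0 h and 62.9, 124, 86.6, 107 and 88.0 at 24 h at 22 °C. At 30 °C it was 315, 439, 121, 288 and 359 at 0 h and 264, 152, 230.4, 117 and 236 at 24 h. The 22 °C groups did not overlap and those at 30 °C did. It fell at 22 °C (-2.29 ± 0.26, limma, BH-adjusted p = 1.25e-08), while its change at 30 °C was -0.55 ± 0.25 (limma, BH-adjusted p = 0.0911). These changes differed by 1.74 ± 0.36 (limma, BH-adjusted p = 0.00194), and at 24 h Vkorc1 was higher at 30 °C by 1.06 ± 0.25 (limma, BH-adjusted p = 0.00240).

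Of the genes for plasminogen activation, its receptors and inhibitors, 4 of 6 were tested, and at 4 h 1 of them was higher at 22 °C and 4 at 30 °C (all genes 15.8% and 17.8%). The urokinase receptor gene Plaur rose by 3.34 ± 0.47 (limma, BH-adjusted p = 8.71e-07) and 3.54 ± 0.45 (limma, BH-adjusted p = 9.43e-08) at 4 h and was still higher at 24 h (2.19 ± 0.45 and 1.46 ± 0.42). Its signal was under the estimated worth of 3 reads in every 0 h library and in 3 of 5 at 30 °C and 24 h. These log2 changes therefore depend on the 1 that was added. S100a10, a plasminogen receptor subunit that pairs with annexin A2, was lower at 30 °C before LPS (-0.96 ± 0.22, limma, BH-adjusted p = 0.0288) and higher there at 24 h (0.75 ± 0.21, limma, BH-adjusted p = 0.0105). Anxa2 and Plgrkt, also plasminogen receptors, were called higher at 30 °C and 4 h (1.28 ± 0.49 and 1.92 ± 0.68) and not at 22 °C (-0.17 ± 0.52 and 0.30 ± 0.72). These changes were not called different between the temperatures, at 1.46 ± 0.72 (limma, BH-adjusted p = 0.740) and 1.62 ± 0.99 (limma, BH-adjusted p = 0.829). Before LPS at 30 °C, Anxa2 was under the estimated worth of 3 reads in 4 of 5 libraries and Plgrkt in 2 of 5. The sizes of their log2 changes therefore also depend on the 1 that was added.

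Among 15 further plasma and secretion-pathway genes, 11 were tested. At 12 h, 3 were higher and 5 lower at 22 °C (all genes 20.7% and 20.6%), and 3 were higher and 6 lower at 30 °C (19.3% and 18.9%). At 24 h, 5 were higher at 30 °C than at 22 °C and 0 lower (9.93% and 8.71%). A2m, a broad protease inhibitor, rose most, by 5.13 ± 0.44 (limma, BH-adjusted p = 1.88e-11) and 5.13 ± 0.42 (limma, BH-adjusted p = 4.41e-12) at 4 h, and its relatives Mug1 and Mug2 fell at 12 h (-1.22 ± 0.37 and -1.40 ± 0.22 at 22 °C, -2.01 ± 0.37 and -1.91 ± 0.22 at 30 °C). Mean A2m signal went from 0.327 to 45.0 at 22 °C and from 0.692 to 52.3 at 30 °C. Every 0 h library was under the estimated worth of 3 reads, so the size of the A2m change depends on the 1 that was added. Hgfac, a protease that activates hepatocyte growth factor, fell at 12 h (-1.34 ± 0.23, limma, BH-adjusted p = 1.94e-05 at 22 °C and -1.49 ± 0.23, limma, BH-adjusted p = 3.37e-06 at 30 °C). Fgl2, a fibrinogen-like prothrombinase, rose at 12 h by 1.55 ± 0.34 (limma, BH-adjusted p = 0.000423) at 22 °C and 1.31 ± 0.34 (limma, BH-adjusted p = 0.00257) at 30 °C. Tfpi2, a Kunitz-type inhibitor, fell at 12 h at 30 °C (-1.40 ± 0.33, limma, BH-adjusted p = 0.000926). Of 4 genes of the thrombin receptor family, 1 was tested, F2r, and it was not called in any change since 0 h.

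The log2 ratio of signal + 1 was formed within libraries for 4 pairs of genes near each other on chromosomes 8 and 16. The pairs were chosen after their values had been seen, so the shifts from 0 to 12 h are given with no test. F11 and Klkb1 lie 4657 bases apart (GRCm38). The mean ratio of F11 to Klkb1 went from -5.40 ± 0.98 (SD, n = 4) to -0.46 ± 0.41 (n = 5) at 22 °C and from -5.89 ± 1.38 (n = 5) to 0.68 ± 0.87 (n = 4) at 30 °C. F10 and Proz are 4237 bases apart, and their mean ratio shifted by 2.09 at 22 °C and by 1.09 at 30 °C. For F10 and F7, 1498 bases apart, the shifts were 1.49 at 22 °C and 0.38 at 30 °C. For Kng1 and Hrg, 96208 bases apart with Kng2 between them, they were 0.75 and 0.81.

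The 5 members below the filter were tissue factor (F3), the starter of clotting, factor VIII (F8), von Willebrand factor (Vwf), which tethers platelets, and the plasminogen activators Plat and Plau. Mean signals over all libraries were 2.56 for F3, 1.73 for F8, 4.44 for Vwf, 1.17 for Plat and 0.338 for Plau, against 11.8 for Thbs1, 11.9 for Procr, 12.4 for Thbd, 13.9 for F11 and 15.3 for Tfpi just above it. Plau was listed at 0 in 29 of 36 libraries and Plat in 17. Vwf signal at 22 °C was 7.19, 6.44, 14.8 and 8.28 at 0 h and 0.221, 0, 1.15, 0 and 0 at 24 h, without overlap. Its change since 0 h, in a fit without the filter, was -3.00 ± 0.90 (limma, BH-adjusted p = 0.0191). No other difference of these 5 members was called in that fit. There the 24 h change of Vwf was not called different between the temperatures (3.76 ± 1.24, limma, BH-adjusted p = 0.114). At 30 °C Vwf ran from 0 to 13.4 at 0 h and from 0.558 to 18.4 at 24 h, with overlap. With 1 estimated worth of a read per library for all genes, the signal was under 3 reads in 19 of 36 libraries for Vwf. The counts were 24 for F3, 28 for F8, 32 for Plat and 35 for Plau. That worth is approximate, as Vwf at 0.221 in 22 °C 24 h replicate 1 lay below the signal of 1.17 taken as 1 read. Differences between groups in these 5 members are therefore uncertain.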

How the data were processed

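Liver RNA libraries of 36 samples were made with CEL-Seq2 modified for bulk tissue, per the labels' protocols. The submitters' processing notes name Trimmomatic, kallisto and sleuth. Not given in those notes or the labels are the transcript index, the genome build, the scaling between libraries and any collapsing of molecular identifiers. The deposited signal, scaled reads per base, is not a count, because 16.8% to 19.6% of values in a library were whole reads within 0.01 read. It was therefore tested on a log scale, in place of the count model that the design had assumed. A second deposited signal, named TPM, summed to between 757040 and 1746038 per library and served as an alternative only.

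Gene identifiers were matched to symbols of GENCODE mouse release 21 (GRCm38), with 34406 of 34829 found. The genes whose mean signal reached 5 were fitted with limma 3.58.1 in R 4.3.3 on log2(signal + 1), which understates changes of low genes. The fit had 1 mean per group, eBayes with a trend, 17 two-sided contrasts and Benjamini-Hochberg adjustment within each contrast. The model was tested on simulated data with known changes. Those data had normal noise, without a lower limit at low signal and without shifts of scale between libraries. That test therefore does not speak to low genes or to such shifts. Estimated reads are the library sum divided by the commonest step between low values, and limits based on them cover counting error only. Promoter windows, available for 25 of the 35 genes, and motifs came from RefSeq (GRCm38.p6), and 31-mers from the annotated transcripts.

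The members and lists were chosen with earlier results of these data known. All 35 members are named, and of each list at most 6 called genes with the largest change since 0 h. One listed gene that is no member is not reported here.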

Additional observations from a re-analysis of the deposited data

Results flagged for a closer look

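A library far from the others of its group was found in 12 of 240 groups of a tested gene, and chance alone flags about 1 in 20. Among the fibrinogen genes these were Fgb in replicate 4 at 30 °C and 24 h (signal 50732, the next highest 40815), Fgg in replicate 1 at 22 °C and 24 h (20003, the next lowest 26404) and Fgl1 in replicate 5 at 30 °C and 0 h (2119.9) and in replicate 2 at 22 °C and 12 h (6586). Pros1, the protein S gene, stood low in replicate 1 at 22 °C and 0 h (5.58, the others at 10.8 or more) and high in replicate 4 at 30 °C and 24 h (63.7). Without the latter library the Pros1 difference between the temperatures at 24 h was still called. The Proz signal was low in replicate 1 at 30 °C and 0 h (42.7), that of F5 in replicate 2 at 22 °C and 0 h (1202) and that of Serpinc1 in replicate 3 at 30 °C and 0 h (297). High values were found for Thbs1 in replicate 4 at 30 °C and 24 h (11.0), Plg in replicate 3 at 30 °C and 12 h (385) and Serpinf2 in replicate 1 at 22 °C and 12 h (459). Replicate 4 at 30 °C and 24 h was thus the far library for Fgb, Pros1 and Thbs1.

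The change from 0 to 24 h differed between the temperatures, by the interaction term of the limma model, for 10 genes. The differences, 30 °C minus 22 °C, were 2.50 for Klkb1 (limma, BH-adjusted p = 0.000268), 1.98 for Proz (0.00743), 1.87 for Serpind1 (0.00703) and 1.24 for F7 (0.0288). They were 1.09 for F9 (limma, BH-adjusted p = 0.00308), 0.96 for Fgl1 (0.000858), 0.90 for Plg (0.00366), 0.89 for Serpinc1 (0.00934), 0.83 for Serpina10 (0.0105) and 0.64 for Kng1 (0.0204). All 10 had the same sign. No cause was tested.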

How the results depend on the processing

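Of the 201 calls made for members over the 17 contrasts, 157 were kept in every alternative tried, 44 were lost in at least 1 and 0 reversed, and of 309 values that were not called 38 were called in at least 1. Total counts of called members moved by over 1.5 times in 3 contrasts, and the cause was not tested. For 30 °C minus 22 °C at 12 h, with 2 calls, array weights gave 5, a fit of the 2 groups alone 1 and upper-quartile rescaling 1. For 24 against 12 h at 22 °C, with 5 calls, a fit of those groups alone gave 3. For the difference of changes since 0 h at 12 h, with 0 calls, array weights gave 1, the fit of its groups alone 1, a mean of at least 20 gave 2 and the replicate block 1. Leaving out single libraries gave 1 to 3 calls for 30 °C minus 22 °C at 12 h, 3 to 6 for 24 against 12 h at 22 °C, 0 to 1 for the difference of changes at 12 h, 12 to 16 for 30 °C minus 22 °C at 24 h and 9 to 12 for the difference of changes at 24 h. Upper-quartile rescaling moved the all-gene median from -0.10 to -0.21 at 4 h and 22 °C and from -0.03 to 0.21 between 4 and 12 h at 30 °C. It moved the split of higher and lower members from 12 and 1 to 10 and 3 in the first and from 2 and 13 to 5 and 9 in the second. Replicate numbers did not pair libraries: over 118 pairs with the same number the median correlation of deviations was -0.000568, and 9 of 36 libraries correlated best with their own number. With the replicate block, 14 members were called for 30 °C minus 22 °C at 24 h and 2 at 12 h. At an estimated 557000 to 2744000 reads a library, values worth fewer than about 3 reads carry large counting error.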
